A study of Saccharomyces cerevisiae with 24 samples.

Results

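The genes described here carry sulfate to methionine, S-adenosylmethionine and cysteine in budding yeast. They are the 10 genes MET3, MET14, MET16, MET10, MET17, MET6, SAM1, SAM2, CYS3 and CYS4, chosen by name with earlier results of these data known. Each was matched to 1 probe, so that 10 of the 6350 probes on the array are described, or 10 of the 5493 genes named on it. In the 4 strains followed through a shift from 23C to 37C, MET17 parted most widely: it was high in SS330 and prp17-1 and low in prp17 null and prp22-1. SAM1 and SAM2 dipped after the shift and were lower in prp17 null than in SS330. The probes of MET3, MET14, MET16, MET10 and CYS3 stayed within 1 log2 unit of the array median on every array with a value. Of these, only CYS3 was called different between prp17 null and SS330 at 37C.

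Yeast takes up sulfate, activates it with ATP, reduces it to sulfide and joins the sulfide to a carbon chain derived from homoserine to give homocysteine. Homocysteine is methylated to methionine, and methionine is converted to S-adenosylmethionine, the methyl donor of the cell. A separate branch turns homocysteine into cysteine through cystathionine. In yeast much of the pathway is under the transcriptional activator Met4 and is repressed when sulfur amino acids are plentiful.

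The study followed strains with lesions in pre-mRNA splicing factors through a temperature shift. The labels name the strains SS330, prp17 null, prp17-1 and prp22-1; SS330 is taken here as the comparison strain, since its name carries no splicing mutation, and its further genotype, the markers and the medium are not stated there. Each strain had 1 array at 23C before the shift, called 0 min, and 1 array at each of 5, 15, 30, 60 and 120 min at 37C, which gives 24 arrays in all. CDC40 (PRP17) encodes a factor of the second step of splicing and PRP22 an RNA helicase that acts in the second step and in release of the spliced mRNA. Because each strain was followed in 1 course, a difference between strains cannot be told apart from a difference between cultures, and p-values measure the spread between time points.

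Each array set Cy5-labelled total RNA of the strain against Cy3-labelled yeast genomic DNA. A value is a deposited log ratio, taken as base 2 because the base is not stated, less the median of its array. That a higher ratio stands for more RNA was judged by CDC40, lower in prp17 null than in SS330 at 37C by a log2 difference of -1.59 ± 0.16 (SE), and from the heat shock genes SSA4 and HSP12, higher at 37C than at 23C by 2.45 ± 0.42 and 2.65 ± 0.60 over the 4 strains. The baseline of each probe is unknown, so values compare arrays and not genes. Arrays held a value for 77.3% to 98.4% of probes, and the lowest correlation between any pair of arrays over probes was 0.31. Coverage differed by strain: prp17 null arrays held a value for 79.7% (30 min) to 91.6% (60 min) of probes, and SS330 arrays for 92.7% to 98.0%. The part of this in the prp17 null results was not tested. Calls lost in an alternative without the 4 arrays with the fewest values are given below. The spread over probes at 37C was wider in prp17 null, with an SD of 0.816 to 1.05, than in SS330, with 0.418 to 0.783; its part in the prp17 null results was not tested, and values after equalising the spread by quantile normalization are given beside the calls they change. HIS3, a gene often used as a marker in strain construction, was higher in prp17 null than in SS330 by 2.36 ± 0.15 (SE); the labels do not give the genotype at that locus, and its part in the results was not tested.

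**Figure D1:**
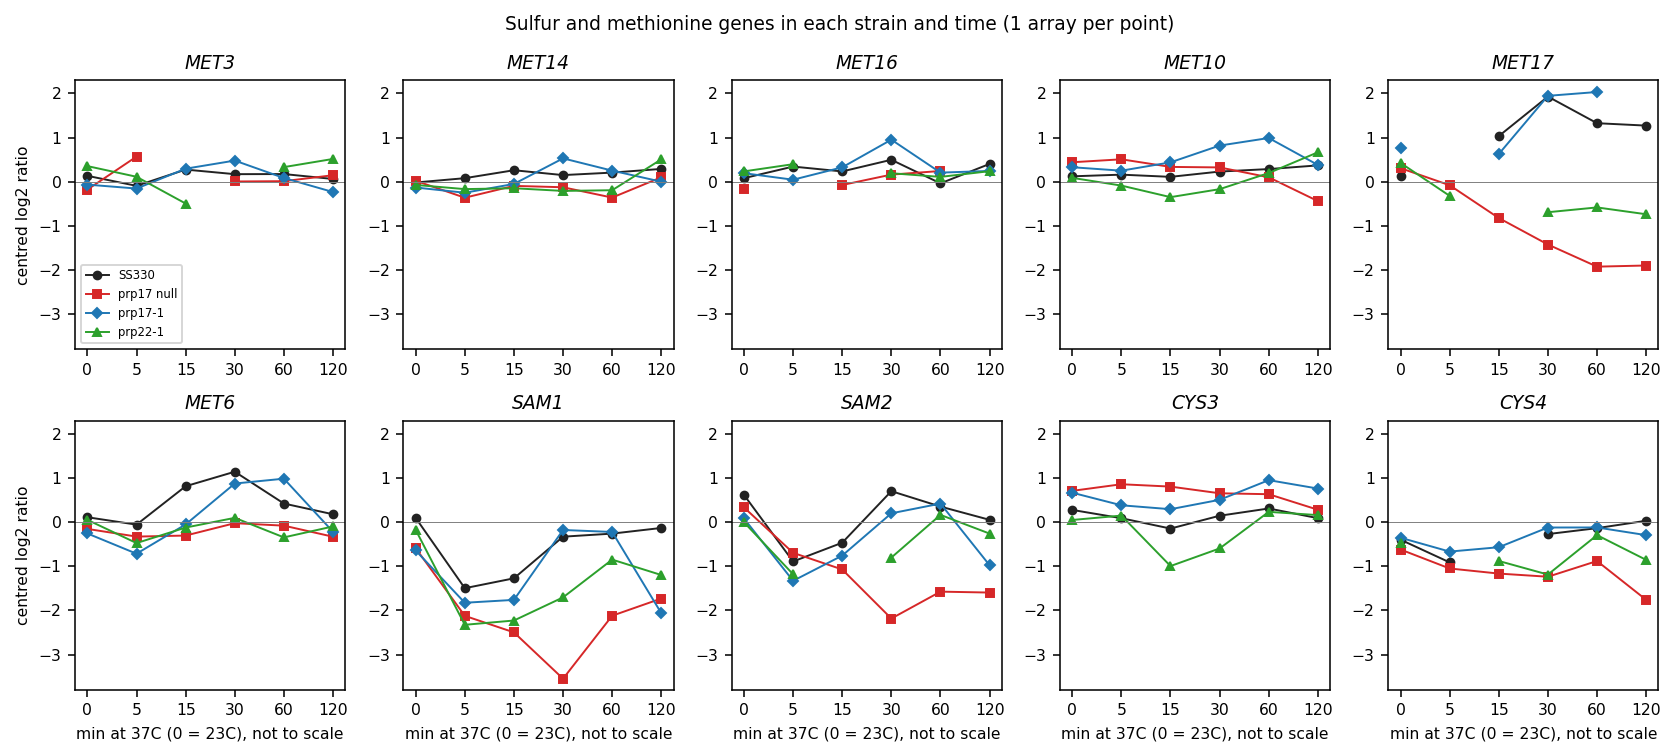
Centred log2 ratio (vertical axis) of each of the 10 genes against time after the shift in min (horizontal axis, evenly spaced times), with 1 line per strain and 1 point per array; a gap is an array without a value. MET17 separates into a high pair (SS330 and prp17-1) and a low pair (prp17 null and prp22-1) at 30 and 60 min, and prp17-1 has no MET17 value at 120 min. SAM1 reaches its lowest value, -3.55, in prp17 null at 30 min, on 1 array that held a value for 79.7% of probes.

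At 37C, 5 of the 10 genes were lower and 1 was higher in prp17 null than in SS330. The genes that fell below SS330 were MET17, SAM1, SAM2, CYS4 and MET6, and the gene above it was CYS3. In prp22-1 the difference passed for MET17, which was lower than in SS330. In prp17-1 no gene of the 10 differed from SS330 past the threshold. A call here is a Benjamini-Hochberg adjusted p under 0.05 from limma over 5487 tested probes, with the time point as a block; all 10 probes were tested, and an array without a value was dropped from that probe's fit. Against all tested probes, 34.0% were called in prp17 null, 14.6% higher and 19.4% lower, and in prp22-1 3.48% were called, 1.80% higher and 1.68% lower. In prp17-1 3.17% were called, 0.948% higher and 2.22% lower, which is 52 and 122 probes (210 and 313 after quantile normalization). The median difference of the 10 genes was -0.54 in prp17 null, where that of all tested probes was -0.04, and -0.40 in prp22-1, where all tested probes gave -0.02. In prp17-1 the 10 genes had a median of -0.02 and all tested probes one of -0.03. These 3 comparisons share the SS330 arrays. The 10 genes were chosen with earlier results of these data known, so their counts and medians beside all probes are a description only.

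**Figure D2:**
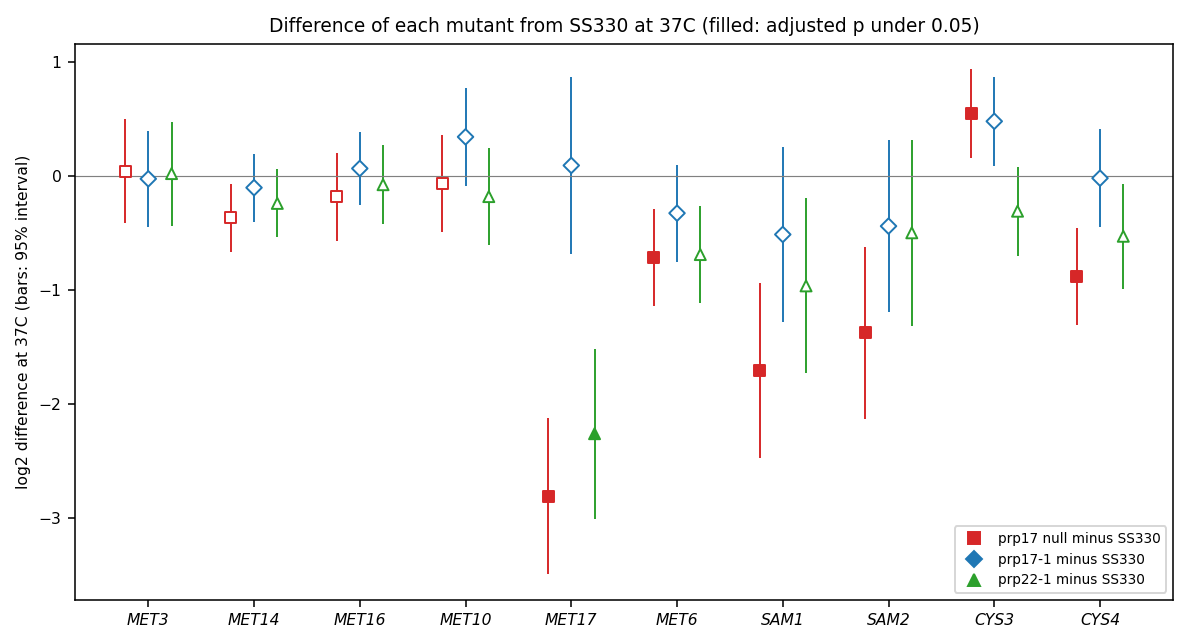
Difference from SS330 at 37C in centred log2 ratio (vertical axis) for each gene (horizontal axis) in the 3 other strains, given by colour and symbol; points are limma estimates, bars their 95% intervals, and filled points have an adjusted p under 0.05. MET17 stands at -2.81 in prp17 null and -2.26 in prp22-1, and at 0.09 in prp17-1.

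The first 4 genes activate and reduce sulfate. MET3 encodes ATP sulfurylase, MET14 adenylylsulfate kinase, MET16 phosphoadenylylsulfate reductase and MET10 a subunit of sulfite reductase. Over the arrays with a value, the centred log2 ratio ran from -0.50 to 0.57 for MET3 on 22 arrays, from -0.36 to 0.53 for MET14 on 24, from -0.17 to 0.95 for MET16 on 21 and from -0.44 to 0.99 for MET10 on 24. Their SDs over the arrays, 0.26, 0.24, 0.23 and 0.33, were at the 28.7th, 22.8th, 19.9th and 50.3rd percentile of the SDs of 5591 probes with a value on at least 20 arrays. None of the 4 passed in a comparison of strains or in the shift. The closest was MET14, whose difference between prp17 null and SS330 was -0.37 ± 0.14 (SE, 95% interval -0.67 to -0.07, limma adjusted p = 0.0552). It passed without the 30 or the 120 min array of prp17-1 or the 120 min array of prp22-1 (adjusted p 0.0369 to 0.0464). Trended and robust moderation also brought it past the threshold (adjusted p = 0.0428). The interval of the same difference was -0.41 to 0.50 for MET3, -0.57 to 0.21 for MET16 and -0.49 to 0.36 for MET10, so that differences of a size seen for MET17 lie outside all 4 intervals.

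MET17 encodes O-acetylhomoserine sulfhydrylase, which fixes sulfide into homocysteine. Its centred log2 ratio in SS330 was 0.12 at 0 min and 1.03, 1.93, 1.33 and 1.27 at 15, 30, 60 and 120 min, with no value at 5 min. In prp17 null it was 0.31 at 0 min and -0.08, -0.82, -1.42, -1.93 and -1.90 at 5, 15, 30, 60 and 120 min. SS330 thus moved up and prp17 null moved down from 0 min, and their values at 37C did not overlap. In prp17-1 it was 0.77 at 0 min and 0.63, 1.95 and 2.03 at 15, 30 and 60 min, with no value at 5 or 120 min. In prp22-1 it was 0.43 at 0 min and -0.32, -0.69, -0.58 and -0.74 at 5, 30, 60 and 120 min, with no value at 15 min. The values of prp17-1 overlapped with those of SS330, and every value of prp22-1 at 37C was below every value of SS330.

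Averaged over 37C, MET17 was 1.39 ± 0.38 (SD, n = 4 times) in SS330, 1.54 ± 0.79 (n = 3) in prp17-1, -0.58 ± 0.19 (n = 4) in prp22-1 and -1.23 ± 0.78 (n = 5) in prp17 null. With the 4 missing arrays dropped from the fit and time as a block, MET17 was lower than in SS330 by a log2 difference of -2.81 ± 0.32 (SE, limma adjusted p = 0.000109) in prp17 null and -2.26 ± 0.34 (adjusted p = 0.00304) in prp22-1. The difference between prp17-1 and SS330 was 0.09 ± 0.36, with a 95% interval of -0.68 to 0.87. Between the strains that carry prp17 lesions, MET17 was lower in prp17 null than in prp17-1 by -2.90 ± 0.35 (adjusted p = 0.000755). The call in prp22-1 was lost when the 5, 15 and 30 min arrays alone were used, at a difference of -2.57 with adjusted p = 0.0665; the filter on values on all 24 arrays leaves MET17 out.

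The change of MET17 from 0 min was opposite in sign in SS330 and in the pair of low strains. The change from 23C to 37C in prp17 null, less that in SS330, was -3.00 ± 0.72 (SE, limma adjusted p = 0.281), and in prp22-1 it was -2.57 ± 0.74 (limma adjusted p = 1.00). Neither passed after adjustment, and no probe on the array did (0% called in each of the 3 tests of this kind), with 1 array per strain at 23C. At an unadjusted limma p under 0.05 there were 378 of 4886 tested probes for prp17 null, 74 of 5211 for prp17-1 and 128 of 5237 for prp22-1. Chance alone gives a share of about 0.05 where p-values are well calibrated. The prp17 null count was above that share, and the prp17-1 and prp22-1 counts were below it. The p-values measure the spread between time points, so that share is only a rough guide here. Quantile normalization brought the adjusted p of MET17 to 0.0225 in prp17 null and 0.0148 in prp22-1. Over all tested probes it also raised the calls, to 228 of 4886 in prp17 null and 177 of 5237 in prp22-1.

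MET6 encodes the cobalamin-independent methionine synthase, which methylates homocysteine. In SS330 it was 0.11 at 0 min and -0.06, 0.82, 1.15, 0.42 and 0.18 at the 5 times at 37C, and in prp17 null -0.15 at 0 min and -0.33, -0.30, -0.02, -0.08 and -0.33. The prp17 null values stayed within a narrow band while SS330 rose at 15 and 30 min and came back, and the groups overlapped through the 5 min array of SS330. In prp17-1 it was -0.26 at 0 min and -0.71, -0.05, 0.88, 0.99 and -0.22, and in prp22-1 0.05 at 0 min and -0.47, -0.12, 0.10, -0.34 and -0.10. The course of prp17-1 had a later crest, at 30 and 60 min, and prp22-1 had none. MET6 was lower in prp17 null than in SS330 by -0.71 ± 0.20 (SE, limma adjusted p = 0.0130). The difference in prp22-1 was about as large, -0.69 ± 0.20, and did not pass (adjusted p = 0.0733). It did pass without the 60 min array of prp17-1 (adjusted p = 0.0271) and after quantile normalization (-0.75, adjusted p = 0.0410). The same held with trended and robust moderation (adjusted p = 0.0475) and with the arrays of prp22-1 and SS330 alone (adjusted p = 0.0387). Without the time block the adjusted p in prp17 null was 0.0577, and with the 60 and 120 min arrays alone the difference was -0.51 (adjusted p = 0.240).

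SAM1 and SAM2 encode the pair of S-adenosylmethionine synthetases of yeast. SAM1 in SS330 was 0.10 at 0 min and -1.50, -1.27, -0.33, -0.26 and -0.13 at the 5 times at 37C. In prp17 null it was -0.59 at 0 min and -2.12, -2.50, -3.55, -2.12 and -1.73. SS330 dipped at 5 and 15 min and came back, while prp17 null went on down to 30 min before it came back in part, and the 37C values of these strains did not overlap. In prp17-1 SAM1 was -0.64 at 0 min and -1.83, -1.76, -0.18, -0.22 and -2.06, and in prp22-1 -0.17 at 0 min and -2.33, -2.23, -1.70, -0.85 and -1.20. The prp17-1 course returned at 30 and 60 min and was low again at 120 min; prp22-1 climbed back in part.

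SAM2 in SS330 was 0.62 at 0 min and -0.89, -0.47, 0.70, 0.35 and 0.05 at the 5 times at 37C, and in prp17 null 0.34 at 0 min and -0.69, -1.07, -2.18, -1.57 and -1.60. The 5 min values of these strains were close together, and from 15 min on each prp17 null value was below every SS330 value. In prp17-1 SAM2 was 0.09 at 0 min and -1.33, -0.76, 0.20, 0.42 and -0.98, and in prp22-1 0.00 at 0 min and -1.18, -0.80, 0.17 and -0.26 at 5, 30, 60 and 120 min, with no value at 15 min. Both strains overlapped with SS330.

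At 37C SAM1 was lower in prp17 null than in SS330 by -1.71 ± 0.36 (SE, limma adjusted p = 0.00262) and SAM2 by -1.38 ± 0.36 (adjusted p = 0.00849). SAM1 stayed past the threshold in each of the 36 alternatives run. SAM2 lost the call in 2 of 35, with adjusted p = 0.178 on the 5, 15 and 30 min arrays and 0.0579 when the fit used the arrays of these strains alone. In prp17-1 the differences from SS330 were -0.51 for SAM1 (95% interval -1.28 to 0.26) and -0.44 for SAM2 (-1.19 to 0.32), and in prp22-1 -0.96 for SAM1 (-1.73 to -0.19, adjusted p = 0.164) and -0.50 for SAM2 (-1.31 to 0.32). None of these passed, though SAM1 in prp22-1 did when the fit used the arrays of prp22-1 and SS330 alone (limma adjusted p = 0.00854).

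SAM1 and SAM2 were also the 2 of the 10 genes called in the shift itself, 37C minus 23C with strain as a block, in which 30.7% of tested probes were called, 13.8% higher and 16.9% lower. SAM1 fell by a log2 difference of -1.17 ± 0.31 (SE, limma adjusted p = 0.00757) and SAM2 by -0.89 ± 0.31 (adjusted p = 0.0332). These calls rest on the 4 arrays at 23C: without the 0 min array of prp17 null the values were -0.95 for SAM1 (adjusted p = 0.0695) and -0.60 for SAM2 (adjusted p = 0.239). SAM2 alone was lost without the 0 min array of SS330 (-0.97, adjusted p = 0.0541), of prp17-1 (-0.999, adjusted p = 0.0536) or of prp22-1 (-1.0, adjusted p = 0.0521). Without the strain block the adjusted p was 0.0608 for SAM1 and 0.109 for SAM2, and with the 60 and 120 min arrays alone SAM1 was at -0.74 (adjusted p = 0.0881) and SAM2 at -0.69 (adjusted p = 0.113). After quantile normalization SAM1 lost its call (-0.78, adjusted p = 0.132) and CYS3 gained one (-0.42, adjusted p = 0.0322), so that the 2 called genes were then SAM2 and CYS3. The median shift of the 10 genes was -0.06, and that of all tested probes 0.00.

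**Figure D3:**
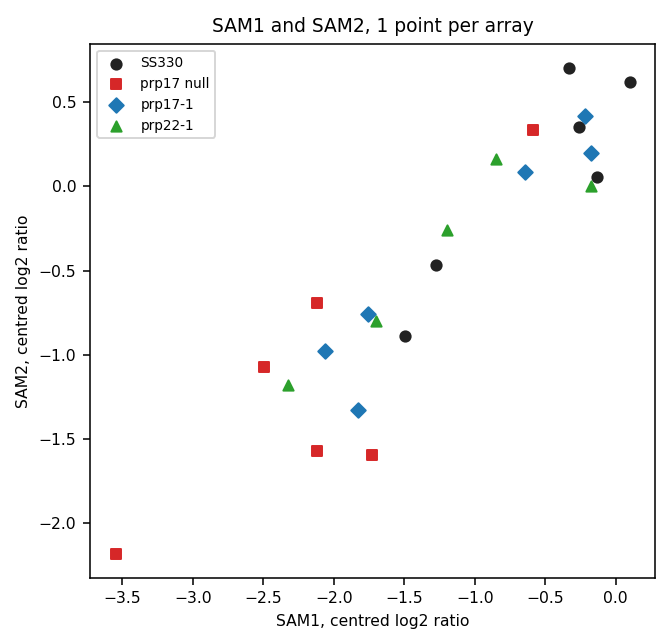
Centred log2 ratio of SAM2 (vertical axis) against SAM1 (horizontal axis), with 1 point per array and the strain given by symbol; 23 arrays have both values. The points run from high values of both genes to the prp17 null array at 30 min, at -3.55 for SAM1 and -2.18 for SAM2.

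The probe most like SAM1 over the arrays was that of SAM2, with a Pearson correlation of 0.92 over 23 arrays, and the reverse also held among 4960 named probes. The arrays share strains and times, and SAM1 and SAM2 are close paralogues whose probes could read each other's RNA, which was not tested. The match was not exact. In prp17 null the change of SAM1 from 0 min less that of SAM2 was -0.50 at 5 min and 0.79 at 120 min. In prp22-1 the change of SAM1 less that of SAM2 lay between -0.97 and -0.73 at the 4 times with both values.

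CYS4 encodes cystathionine beta-synthase and CYS3 cystathionine gamma-lyase, the successive enzymes from homocysteine to cysteine. CYS4 in SS330 was -0.40 at 0 min and -0.91, -0.27, -0.13 and 0.03 at 5, 30, 60 and 120 min, with no value at 15 min. In prp17 null it was -0.62 at 0 min and -1.05, -1.16, -1.24, -0.88 and -1.76 at the 5 times. The SS330 values climbed after 5 min and those of prp17 null stayed at or below -0.88, and the groups overlapped through the 60 min array of prp17 null and the 5 min array of SS330. In prp17-1 CYS4 was -0.35 at 0 min and -0.67, -0.57, -0.12, -0.12 and -0.29, with the values at 37C all above those of prp17 null, and in prp22-1 -0.46 at 0 min and -0.88, -1.19, -0.29 and -0.85 at 15, 30, 60 and 120 min. CYS4 was lower in prp17 null than in SS330 by -0.88 ± 0.20 (SE, limma adjusted p = 0.00458) and than in prp17-1 by -0.86 ± 0.19 (adjusted p = 0.00975). The difference between prp22-1 and SS330, -0.53 ± 0.22, did not pass (adjusted p = 0.212). On the 5, 15 and 30 min arrays alone the differences from SS330 and from prp17-1 had adjusted p = 0.152 and 0.124, and quantile normalization moved them to -0.50 in both comparisons, with adjusted p = 0.0994 against prp17-1.

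CYS3 went the other way. In SS330 it was 0.28 at 0 min and 0.09, -0.14, 0.15, 0.31 and 0.09 at the 5 times at 37C, and in prp17 null 0.71 at 0 min and 0.86, 0.81, 0.66, 0.64 and 0.28. The prp17 null values were above those of SS330 except that its 120 min value was just under the 60 min value of SS330. The strains already stood apart at 23C, where each had 1 array. In prp17-1 CYS3 was 0.67 at 0 min and 0.38, 0.30, 0.51, 0.95 and 0.76, and in prp22-1 0.05 at 0 min and 0.15, -0.99, -0.60, 0.24 and 0.16. The prp17-1 values overlapped with those of prp17 null, and prp22-1 was low at 15 and 30 min. CYS3 was higher in prp17 null than in SS330 by 0.55 ± 0.18 (SE, limma adjusted p = 0.0317), and the difference in prp17-1, 0.48 ± 0.18, did not pass (adjusted p = 0.179). With the arrays of prp17-1 and SS330 alone the prp17-1 difference passed (limma adjusted p = 0.0354). The call in prp17 null was lost in 12 of 36 alternatives, among them quantile normalization (0.36, adjusted p = 0.139), and it was lost without any 1 of the SS330 arrays at 5, 60 or 120 min or the prp17 null arrays at 5, 15 or 30 min (0.40 to 0.54, adjusted p at most 0.0904).

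Set directly against each other, prp17 null and prp17-1 differed in 3 of the 10 genes, MET17, SAM1 and CYS4, each lower in prp17 null; 12.9% of tested probes were called in this comparison, 6.82% higher and 6.11% lower. SAM1 was lower by -1.19 ± 0.36 (SE, limma adjusted p = 0.0397), but the call was lost in 14 of 36 alternatives, and without the 30 min array of prp17 null the value was -0.79 (adjusted p = 0.120), and after quantile normalization -1.16 (adjusted p = 0.159). The call of SAM1 was also lost without the 60 min array of prp17 null or SS330, or any 1 of the prp17-1 arrays at 5, 15, 30 or 60 min (-1.25 to -0.87, adjusted p 0.0502 to 0.129). SAM2 was lower by -0.94 ± 0.36 without passing (adjusted p = 0.0956), and it passed without the 5 min array of prp17 null (-1.31, adjusted p = 0.0135). It also passed with the 60 and 120 min arrays alone (-1.31, adjusted p = 0.0363) and without the 4 arrays with the fewest values (-1.05, adjusted p = 0.0481). The median of the 10 genes was -0.40, and that of all tested probes -0.01.

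The rest of the pathway was read from 48 further genes, of which 45 had a probe and 37 were tested. They too were listed with earlier results of these data known. In prp17 null 11 of these 37 were lower than in SS330 and 2 were higher, where 19.4% of all tested probes were lower and 14.6% higher. Among those lower were the methionine permease gene MUP1 (-1.23 ± 0.15 SE, limma adjusted p = 9.18e-05), the spermine synthase gene SPE4 (-1.23 ± 0.16, adjusted p = 0.000142) and MET22 (-1.14 ± 0.16, adjusted p = 0.000294), which encodes the phosphatase that clears a by-product of sulfate reduction. The S-methylmethionine permease gene MMP1 (-0.96), the S-adenosylmethionine permease gene SAM3 (-0.81) and MTD1 (-0.72), a folate dehydrogenase gene, were also lower; MMP1 lost its call without the 30 min array of prp17 null (-0.61, adjusted p = 0.0710). The 2 higher genes, named after their values were seen, were ADE3, a folate one-carbon enzyme gene (0.56, adjusted p = 0.00536), and the glutathione synthetase gene GSH2 (0.41, adjusted p = 0.0451), a call lost in 22 of 36 alternatives (0.26, adjusted p = 0.168 after quantile normalization); ADE3 lost its call on the 5, 15 and 30 min arrays alone (0.27, adjusted p = 0.197) and with the arrays of these strains alone (adjusted p = 0.0765). MTD1 and SAM3 each lost their call in 3 alternatives, and MMP1 in 4, whereas MUP1, SPE4 and MET22 kept theirs against SS330 in each one run. By group, with the 10 genes counted in and 19.4% of all tested probes lower, the lower genes were 4 of 7 for transport, 3 of 7 for salvage and polyamines, 3 of 5 for the methyl cycle (MET6, SAM1 and SAM2) and 3 of 6 for homocysteine and cysteine synthesis. They were 1 of 5 for sulfate uptake and activation, 1 of 5 for the regulators, 1 of 6 for folate one-carbon units, 0 of 4 for sulfate and sulfite reduction and 0 of 2 for glutathione synthesis; the groups were not tested against each other.

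MUP1, which brings methionine into the cell, sorted the strains as MET17 did. In SS330 it was -0.16 at 0 min and 0.27, 0.88, 0.40, 0.22 and 0.10 at the 5 times at 37C, and in prp17 null -0.12 at 0 min and -0.98, -0.72, -0.68, -0.66 and -1.22. In prp17-1 MUP1 was -0.23 at 0 min and -0.09, 0.34, 0.62, 0.08 and -0.23, and in prp22-1 -0.32 at 0 min and -0.86, -0.89, -0.84, -0.74 and -0.50. The 4 values at 23C lay close together, and the prp17 null and prp22-1 values at 37C did not overlap with those of SS330. MUP1 was lower in prp22-1 than in SS330 by -1.14 ± 0.15 (SE, limma adjusted p = 0.00047), a call lost with the 60 and 120 min arrays alone (-0.78, adjusted p = 0.0837), and lower in prp17 null than in prp17-1 by -1.0 ± 0.15 (adjusted p = 0.00111).

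In prp22-1, where 1.68% of all tested probes were lower than in SS330 and 1.80% higher, 2 of the 37 further genes were lower and none was higher: MUP1 and MET22 (-0.53 ± 0.14 SE, limma adjusted p = 0.0478). The call of MET22 in prp22-1 was lost in 21 of 35 alternatives, 15 of them with 1 array of any of the 4 strains left out (-0.57 to -0.42, adjusted p at most 0.172). In prp17-1, 1 was higher and 1 lower than in SS330, where 0.948% of all tested probes were higher and 2.22% lower. The higher gene was OPT1, a transporter gene for oligopeptides and glutathione (0.80 ± 0.18, adjusted p = 0.0235), and the lower was MET22 (-0.73 ± 0.14, adjusted p = 0.00977). MET22 already stood low at 23C in both strains with prp17 lesions, at -0.81 in prp17 null and -0.74 in prp17-1, against -0.06 in SS330 and -0.13 in prp22-1. OPT1 stood at 0.04 in prp17-1 and -0.66 in SS330 at 23C, and its call was lost in 10 of 35 alternatives, 7 of them without 1 array of SS330 (each time but 5 min) or of prp17-1 (5, 15 or 30 min), with adjusted p at most 0.0786.

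**Figure D4:**
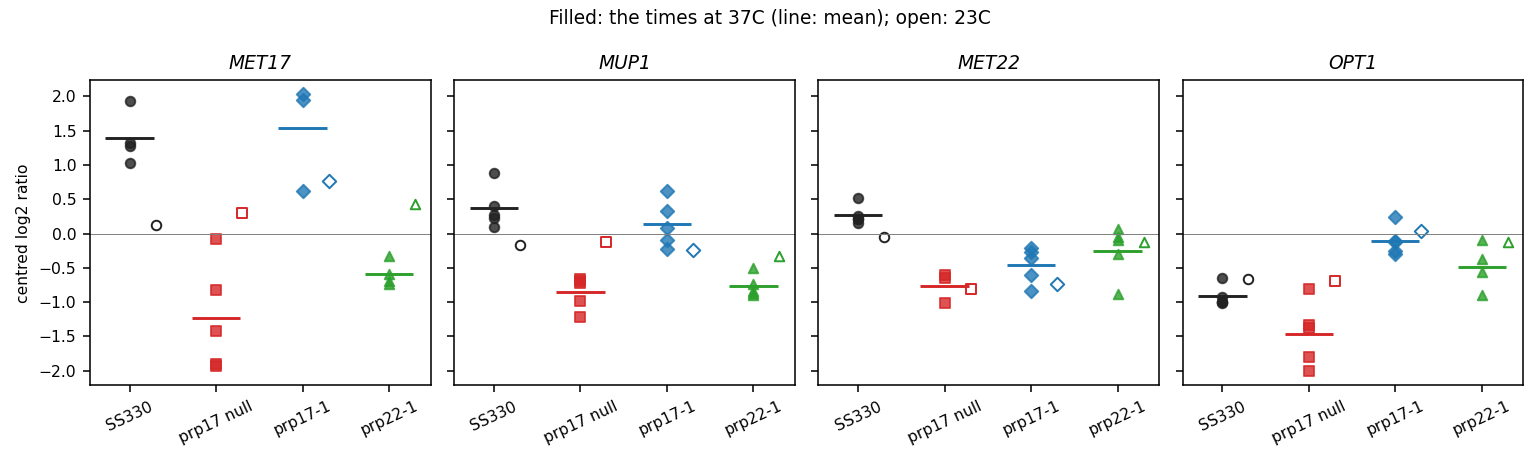
Centred log2 ratio (vertical axis) of MET17, MUP1, MET22 and OPT1 by strain (horizontal axis); filled points are the arrays at 37C, the line their mean, and the open point the 23C array. At 37C the MET17 and MUP1 values of prp17 null and prp22-1 lie below those of SS330 without overlap, and OPT1 lies above SS330 in prp17-1. SS330 has no MET17 value at 5 min, where prp17 null and prp22-1 have one, so the MET17 groups cover unlike times.

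Between prp17 null and prp17-1, 5 of the 37 further genes were lower in prp17 null and 2 were higher, where 6.11% of all tested probes were lower and 6.82% higher. OPT1 had the largest difference (-1.36 ± 0.18 SE, limma adjusted p = 0.00052), and the others lower were MUP1, MMP1 (-0.89), the salvage enzyme gene UTR4 (-0.73) and SPE4 (-0.72). The 2 higher were GSH2 (0.58) and, named after its value was seen, ADE3 (0.58). Of these calls MMP1 was lost in 10 of 35 alternatives, GSH2 in 6 of 36, SPE4 in 5 of 35, ADE3 in 4 of 36 and UTR4 in 1 of 36. After quantile normalization MMP1 was at -0.65 (adjusted p = 0.119), SPE4 at -0.25 (adjusted p = 0.450), GSH2 at 0.43 (adjusted p = 0.0877) and ADE3 at 0.38 (adjusted p = 0.0859). In the shift, 4 of the 37 were lower at 37C and none was higher, where 16.9% of all tested probes were lower and 13.8% higher. They were SAM4, which encodes an S-adenosylmethionine-homocysteine methyltransferase (-1.03 ± 0.19, adjusted p = 0.000634), the salvage genes MRI1 (-1.0 ± 0.18, adjusted p = 0.000659) and MDE1 (-0.37, adjusted p = 0.0431), and SPE4 (-0.90, adjusted p = 0.00151). MDE1 lost its call in 21 of 35 alternatives, among them without the 0 min array of prp17 null (-0.31, adjusted p = 0.194) and after quantile normalization (-0.082, adjusted p = 0.653).

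Of the regulators, the probe of MET31, a zinc finger factor that brings Met4 to DNA, was lower in prp17 null than in SS330 by -0.55 ± 0.13 (SE, limma adjusted p = 0.00679), a call lost in 3 of 35 alternatives. MET4 itself (0.21), MET30, a ubiquitin ligase subunit that restrains Met4 (-0.26), CBF1, a DNA-binding partner of Met4 (0.12), and MET32, the paralogue of MET31 (-0.65, adjusted p = 0.0559), did not pass. After quantile normalization CBF1 passed at 0.76 (adjusted p = 0.0124). MET32 passed in 4 of 35 alternatives. It passed without the 5 min array of prp17 null (-0.86, adjusted p = 0.0131) and without the 30 min array of prp17-1 (-0.65, adjusted p = 0.0309). The others were the 60 and 120 min arrays alone (-0.77, adjusted p = 0.0389) and trended and robust moderation (adjusted p = 0.0401). MET28, a cofactor of Met4, had too few values to be tested. No regulator passed in prp17-1, in prp22-1 or in the shift. The probes read RNA of the regulators, not the activity of their proteins.

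By spread over the arrays, MET17 was the widest of the 10 genes, with an SD of 1.22 at the 99.3rd percentile of the 5591 probes. SAM1 followed at 0.96 and SAM2 at 0.80, the 98.0th and 95.05th percentiles. MET6 at 0.48, CYS4 at 0.46 and CYS3 at 0.45 lay between the 74.8th and the 77.9th. Profiles were compared among 4960 named probes, over the arrays where both probes had a value. The probe most like MET17 was CYS4 (r = 0.84, 18 arrays), then TCP1 (0.83) and FUI1 (0.83). The most like MET6 were MTD1 (0.75), MET17 (0.75) and ADE17 (0.74). After SAM2 the most like SAM1 were UTP23 (0.88) and BMT5 (0.87), and after SAM1 the most like SAM2 were BMT5 (0.90) and SHR3 (0.89). CYS4 was most like SPC3 (0.88), SPC34 (0.86) and ACM1 (0.85), and CYS3 most like GVP36 (0.85), NSE4 (0.84) and DUN1 (0.81). Among the 4 narrow genes, MET10 was most like CYS3 (0.65), ADO1 (0.64) and MET5 (0.64), and MET14 like YML108W (0.66), SFI1 (0.66) and MET5 (0.64). MET3 was most like BRR6 (0.76), MTF2 (0.67) and FBP1 (0.64), and MET16 like MRPL24 (0.69), TDH1 (0.65) and PET130 (0.65). These correlations share the 24 arrays, and with 4960 probes to choose from the highest values say little for narrow profiles.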

How the data were processed

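RNA of 4 strains at 6 times was measured on 24 two-colour arrays, with RNA in Cy5 and yeast genomic DNA in Cy3, per the labels. The authors deposited 1 log2 ratio per probe and array; base 2 is assumed. How they corrected background, scaled the arrays or left out spots is not given in these sources. Each probe's signal over background is not given, and the number of arrays limits the precision. Probes were named through GEO's platform annotation with symbols updated from RefSeq (R64); 5527 of 6350 probes had 1 gene symbol. MET17 overlaps another annotated gene, YLR302C, and whether the probes are strand-specific is not known.

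Each array was centred on its median. A probe was tested where 20 or more of 24 arrays, and 3 or more of each strain's 5 at 37C, held a value. The fit was made with limma 3.58.1 in R 4.3.3 (lmFit, eBayes), with Benjamini-Hochberg adjustment over all tested probes. Strain comparisons at 37C and changes against SS330 used all 24 arrays with time point as a block, taken from the labels; the shift used strain as a block. The steps were tested on simulated data. The 10 genes and the pathway lists were chosen with earlier results of these data known. Named beside the 10 were up to 6 called pathway genes per comparison with the largest difference, the regulators, and the 3 named genes most like each of the 10. Of the 58 listed genes, HOM3, ARO8 and SHM2 were not matched to a probe and MET1, STR2, HOM2, SAH1, MHT1, ADI1, ARO9 and MET28 had too few values. Alternatives changed the centring, normalization, filter, threshold, block, moderation, times and arrays. A planned look at promoter motifs was not made, because promoter sequences were not used here.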

Additional observations from a re-analysis of the deposited data

Results flagged for a closer look

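In a group of 5 arrays of one strain at 37C, 1 value lay far from the others: MET14 in prp22-1 at 120 min, at 0.51. It was 1 of 38 such groups examined, and among independent values chance alone sets about 1 in 20 apart in this way. The values of a group are successive times of 1 course, so that rate need not hold here. The other values that drew attention are 2 changes of MET17 that ran against those of SS330 at each time with both values. The change of MET17 from 23C to 37C less that in SS330 was -3.00 in prp17 null (limma adjusted p = 0.281) and -2.57 in prp22-1 (adjusted p = 1.00), so neither difference passed the test.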

How the results depend on the processing

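The alternatives were no centring, a median taken over probes other than ribosomal protein genes, quantile normalization, looser and stricter filters, a stricter threshold, trended and robust moderation, no replicate block, early times (5, 15 and 30 min) or late times (60 and 120 min) at 37C, the arrays of the compared strains alone, and each array left out; leaving out the 4 arrays with the fewest values was chosen after seeing the data. Those 4 were prp17 null at 0, 5 and 30 min and prp22-1 at 15 min. Without them prp17 null against SS330 lost the calls of CYS3 (0.41, limma adjusted p = 0.126) and MMP1 (-0.42, adjusted p = 0.364). The calls of MTD1 (-0.47, adjusted p = 0.102) and GSH2 (0.37, adjusted p = 0.0576) were lost as well. MET17 and SAM1 in prp17 null kept direction and call in each alternative that could test them (-3.21 to -2.55 and -1.95 to -1.31). The cause was not tested where a count moved, except that fewer genes (5 of the 10) have values on all arrays and fewer samples enter some fits.

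Of the 10 genes, the number called in prp17 null against SS330 (6) became 3 with values on all arrays and 3 with the compared strains alone. In prp17-1 (0) it became 1 with the compared strains alone. In prp22-1 (1) it became 2 after quantile normalization and with robust moderation, 3 with the compared strains alone, and 0 with values on all arrays and with early times. Between prp17 null and prp17-1 (3) it became 1 after quantile normalization, with values on all arrays and with early times. In the shift (2) it became 1 with values on all arrays, at adjusted p under 0.01 and without the 4 arrays, and 0 with no replicate block and with late times. For the changes against SS330 (0) it became 1 after quantile normalization in prp17 null and in prp22-1, and 1 with late times in prp17 null. With 1 array left out it ranged from 5 to 7 in prp17 null, 0 to 0 in prp17-1, 1 to 2 in prp22-1, 2 to 4 between prp17 null and prp17-1, 0 to 2 in the shift and 0 to 0 in the changes against SS330.

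Over all probes, prp17 null against SS330 (1863) gave 1217 after quantile normalization, 880 with values on all arrays, 965 at adjusted p under 0.01, 665 with early times and 769 with the compared strains. In the same order prp17-1 (174) gave 523, 109, 50, 56 and 309, with 77 without the block and 302 without the 4 arrays. For prp22-1 (191) the counts were 418, 79, 84 and 57 under the first 4 of these settings. Between prp17 null and prp17-1 (709) they were 147, 319, 183, 70 and 359, with 440 without the block. The shift (1684) gave 944 with values on all arrays, 986 at adjusted p under 0.01, 1061 without the block and 1027 with late times. The changes against SS330 (0 each) gave 228, 98 and 177 after quantile normalization in prp17 null, prp17-1 and prp22-1, 1 with early and 42 with late times in prp17 null, and 1 in prp22-1 without the 4 arrays. With 1 array left out the counts ran from 1270 to 2083 in prp17 null, 77 to 242 in prp17-1, 100 to 258 in prp22-1, 394 to 936 between prp17 null and prp17-1, 994 (without the 0 min array of prp17 null) to 1818 in the shift, and 0 to 1 in the changes against SS330.

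The results that reversed were not called in either setting. After quantile normalization MET3 (-0.019) and MET4 (-0.077) in prp17 null, MET17 in prp17-1 (-0.19), CYS3 between prp17 null and prp17-1 (-0.13), and MET3 (-0.015), MET10 (-0.098) and CYS4 (0.27) in the shift changed sign. With early times MET10 (0.22) and CBF1 (-0.0045) in prp17 null, MET3 (0.089), MET17 (-0.195) and CYS4 (0.12) in prp17-1, MET3 in prp22-1 (-0.30) and MET10 in the shift (-0.030) did so. With late times MET3 (-0.038) and MET16 (0.16) in prp17 null, MET6 in prp17-1 (0.083), MET10 in prp22-1 (0.10), MET16 (0.12) and CYS3 (-0.40) between prp17 null and prp17-1, CYS3 in the shift (0.0018) and the change of MET17 in prp17-1 against SS330 (0.056) did so. CYS4 in prp17-1 reversed without centring (0.0072) and with the compared strains alone (0.021), MET3 in prp22-1 without the block (-0.0015), and CYS3 between prp17 null and prp17-1 (-0.074) and MET17 in the shift (0.30) without the 4 arrays. With 1 array left out, values on both sides of 0 ran from -0.15 to 0.16 for MET3 and -0.20 to 0.13 for MET10 in prp17 null, from -0.14 to 0.085 for MET3, -0.065 to 0.18 for MET16, -0.24 to 0.56 for MET17 and -0.18 to 0.16 for CYS4 in prp17-1, from -0.15 to 0.29 for MET3 and -0.18 to 0.033 for MET16 in prp22-1, from -0.13 to 0.19 for MET3 and -0.082 to 0.20 for CYS3 between prp17 null and prp17-1, and from -0.020 to 0.16 for MET3, -0.067 to 0.11 for MET10 and -0.64 to 0.39 for MET17 in the shift.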
